A study of Homo sapiens with 6 samples.

Results

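The HOX genes encode the homeodomain transcription factors of the HOXA, HOXB, HOXC and HOXD clusters, and they were described here in U2OS, a human osteosarcoma line, with a TUSC4 shRNA and with a control shRNA. The members were all array probes whose symbol was HOXA, HOXB, HOXC or HOXD followed only by digits. This gave 54 of the 47231 probes, for 39 of the 31334 gene symbols on the array: 11 genes of HOXA, 10 of HOXB, 9 of HOXC and 9 of HOXD. Biotin-labelled RNA was run on 6 Illumina arrays, 3 of cells with a stable TUSC4 knockdown and 3 of cells carrying the control shRNA, which the labels call parental cells. TUSC4 is the older symbol of NPRL2, a subunit of the GATOR1 complex that restrains the growth kinase mTORC1. The labels do not say whether the knockdown line was a clone or a pool. All 6 arrays sat on a single BeadChip with each group in neighbouring places, so the effect of place and that of the shRNA cannot be told apart. Separate cultures are not stated for the 3 samples of a group, and the p-values therefore measure a spread between samples that may be technical.

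In vertebrates the genes of each cluster lie in the order in which they act along the body axis, with low paralogue numbers used toward the head and high numbers toward the tail and the distal limb. Genes with the same number in different clusters are paralogues that descend from duplication of 1 ancestral cluster. Their proteins bind DNA together with TALE homeodomain cofactors such as PBX and MEIS. Polycomb complexes keep silent HOX genes off, and Trithorax complexes keep active ones on. In skeletal cells the set of HOX genes in use is known to record the place in the body from which the cells came.

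The TUSC4 signal was 366, 345 and 481 on the TUSC4 shRNA arrays, against 1105, 943 and 977 on the control shRNA arrays, a log2 fold change of -1.18 ± 0.10 (SE) at a limma adjusted p of 8.77e-07. The arrays had between 20378 and 20765 probes above the estimated background with the TUSC4 shRNA and between 20659 and 21485 with the control shRNA. Their median signals were 118, 113.8 and 126.3 with the TUSC4 shRNA and 128.1, 123.2 and 122.8 with the control shRNA, which is the level of a typical probe with little or no transcript. Of the 54 HOX probes, 24, 22 and 23 were above background on the TUSC4 shRNA arrays and 28, 27 and 25 on the control shRNA arrays. Over all genes 13.7% were called lower and 13.3% higher, which the marker counts can be read against. Of 12 osteoblast lineage markers 8 were measured, with 3 lower and 1 higher, and their summed signal was 2257 to 2749 with the TUSC4 shRNA and 3616 to 4366 with the control shRNA. Among them RUNX2, the master regulator of the lineage, fell by 0.68 ± 0.11 on the log2 scale (limma adjusted p = 0.00028), COL1A1 fell by 0.96 ± 0.11 and SPP1, which encodes osteopontin, rose by 0.97 ± 0.10. SP7, a defining osteoblast factor, was above background on 1 TUSC4 shRNA array and on no control shRNA array, and IBSP on no TUSC4 shRNA array and on 2 control shRNA arrays. The leukocyte gene PTPRC, the cadherin gene CDH1 of epithelia and the endothelial cadherin gene CDH5 did not pass the filter, but other markers of each of these lineages did. Of 8 fibroblast and mesenchyme markers 6 were measured and 4 fell, with summed signals of 13041 to 15226 in the knockdown and 14302 to 14798 in the control. Nearly all of that sum was vimentin (VIM), while the lumican gene LUM, with signals of 190, 166 and 245 in the knockdown against 764, 553 and 667 in the control, fell by 1.75 ± 0.12 on the log2 scale (limma adjusted p = 1.62e-07) and PDGFRB fell by 0.94 ± 0.10. Of 9 epithelial markers 3 were measured and 2 fell, with sums of 912 to 1001 in the knockdown and 1386 to 1628 in the control. The 2 were the keratin genes KRT8, at -0.69 ± 0.12, and KRT18, at -0.31 ± 0.11, both above background on all 6 arrays. Of 5 neural markers 2 were measured and 1 fell, with sums of 2323 to 2517 in the knockdown and 2991 to 3778 in the control. The 1 haematopoietic and the 1 endothelial marker measured were not called. The part of these shifts in the HOX results was not tested. In these bulk samples, fewer cells that use a gene and less RNA per cell cannot be told apart.

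Of the 39 HOX genes, 26 had a probe above the estimated background on at least 3 of the 6 arrays, and 13 did not. HOXA3, HOXA7, HOXB1, HOXB3, HOXB4, HOXB9, HOXC5, HOXC11, HOXC12, HOXD4, HOXD9, HOXD12 and HOXD13 were the 13. Their 16 probes had mean signals between 98 and 119 with the TUSC4 shRNA and between 101 and 131 with the control shRNA. Of those probes 12 were above background on no array, 3 on 1 array and 1, for HOXB3, on 2. The filter covered 9 of 11 HOXA genes, 6 of 10 HOXB genes, 6 of 9 HOXC genes and 5 of 9 HOXD genes. A level near background does not show that a gene was silent.

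Among the 26 HOX genes tested, 10 fell in the knockdown and none rose. They were HOXA5, HOXA9, HOXA10, HOXA11, HOXA13, HOXB2, HOXB5, HOXC6, HOXC13 and HOXD1. These 10 are 38.5% of the genes tested, where 13.7% of all 15300 genes were called lower by the same limma fit and 13.3% higher. At an unadjusted p under 0.05, limma gave 14 lower and 0 higher, beside 18.8% of all genes lower and 18.9% higher. The median log2 fold change of the HOX genes was -0.23, against 0.00 for all genes. It was -0.19 with the 3 HOX genes above background on no TUSC4 shRNA array taken at the smallest fall that background allows. Of the log2 fold changes 23 of 26 were negative, beside 7616 of 15300 over all genes. Every HOX value is relative to the typical gene: with median scaling the median over all genes became -0.12, and with no normalization -0.16. Under both settings the HOX genes had 13 lower and none higher, beside 22.6% and 23.0% of all genes called lower and 4.05% and 2.51% called higher. None of the 10 calls changed its direction under the 19 alternatives tried.

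HOXA11 and HOXD1 were above background on all control shRNA arrays and on no TUSC4 shRNA array. They passed the filter only through the group where they were high. HOXA13 and HOXB13, above background on 1 TUSC4 shRNA array each, also met it through the 3 control shRNA arrays alone. The counts are therefore given without the filter as well. With no filter all 39 HOX genes were tested, and again 10 were lower and none higher, the same 10 genes, beside 6.42% of 31334 genes called lower and 6.17% higher. The median over the 39 was -0.09, against 0.00 for all genes, and 31 of the 39 values were negative. Of the 15 HOX genes above background on all 6 arrays, 7 fell and none rose, beside 14.7% lower and 15.1% higher among the 12726 genes with that property. The values of the groups lay apart for 14 of the 26 HOX genes, all lower in the knockdown, beside 20.5% of all genes apart and lower and 20.0% apart and higher.

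**Figure D1:**
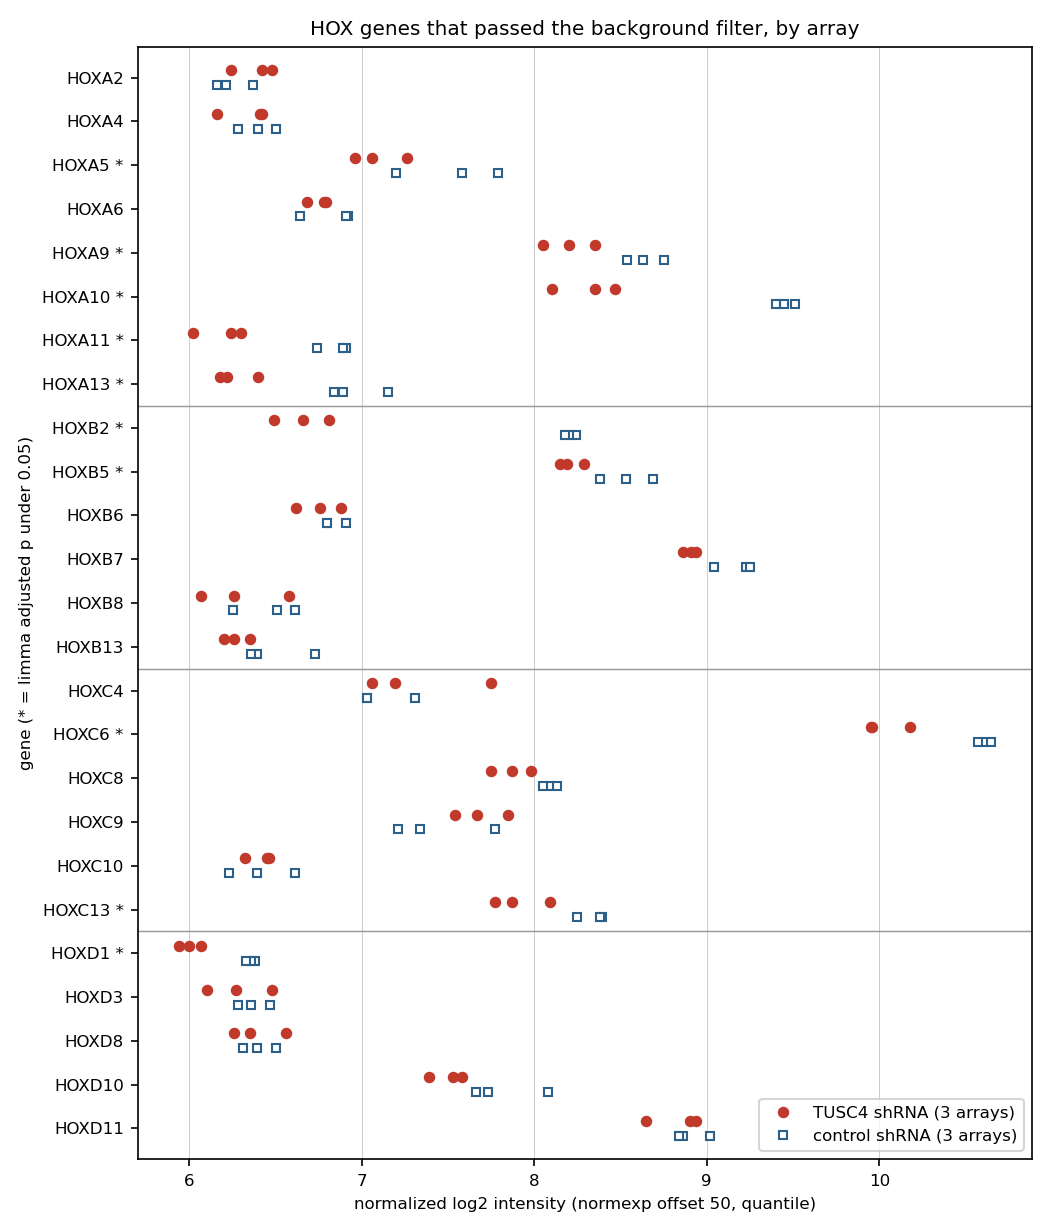
Normalized log2 intensity of 25 of the 26 tested HOX genes on each array (filled circles, 3 TUSC4 shRNA arrays; open squares, 3 control shRNA arrays), with horizontal lines between clusters. HOXB2 and HOXA10 show the widest gaps between the groups, while the arrays of HOXC4, HOXC9, HOXC10 and HOXD8 overlap.

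HOXA was the cluster with the most calls. Of its 9 tested genes 5 fell and none rose, and the median log2 fold change was -0.43. All 4 tested genes at the posterior end, HOXA9, HOXA10, HOXA11 and HOXA13, fell, with a median of -0.68, or -0.61 with HOXA11 at its bound. On the array as a whole 13.7% of genes were called lower. Of the 5 tested genes of the anterior part of the cluster, up to HOXA6, only HOXA5 fell, and their median was -0.07. The difference between the ends was not tested.

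HOXA10, a posterior gene that patterns the upper limb bones and the uterus, had signals of 338, 275 and 403 with the TUSC4 shRNA, against 913, 741 and 810 with the control shRNA. The groups lay far apart, and the highest knockdown array was below every control array. The means were 339 ± 63.9 and 821 ± 86.6 (SD, n = 3 each), and the log2 fold change was -1.14 ± 0.11 (SE) at a limma adjusted p of 2.13e-06. Both other HOXA10 probes failed the filter, with signals between 97.4 and 120 in the knockdown and between 115 and 127 in the control.

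HOXA9, a posterior gene also active in blood progenitors, had signals of 338, 289 and 310 in the knockdown and 542, 487 and 438 in the control. The groups did not overlap, and the log2 fold change was -0.44 ± 0.11 (limma adjusted p = 0.00553). HOXA11, which patterns the forearm and lower leg, had 118, 104 and 130 in the knockdown against 187, 168 and 156 in the control. It was not well above background on any knockdown array, so it fell at least 1.44-fold with the correction and offset used (limma adjusted p = 0.000249). A bound of this kind sets the bright group's mean log2 value against the lowest value above background, or the dim probe's own where higher. HOXA13, which patterns the hand, foot and hindgut, had 126, 111 and 125 in the knockdown and 185, 164 and 194 in the control. It was above background on 1 of 3 knockdown arrays and on all 3 control arrays, which alone met the filter. Its log2 fold change was -0.69 ± 0.11 (limma adjusted p = 0.000232). The size of the fall of HOXA13 depended on the background handling, with log2 fold changes from -1.07 with an offset of 16 to -0.39 with the authors' values. Without normalization the fall of HOXA9 was larger, at -0.72.

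HOXA5, a mid-cluster gene that shapes the neck, shoulder and lung, had signals of 161, 160 and 202 in the knockdown and 279, 273 and 199 in the control. Here the groups overlapped, because control replicate 3 lay below knockdown replicate 3. The log2 fold change was -0.43 ± 0.13 (limma adjusted p = 0.0258). The call was lost with the authors' values (adjusted p = 0.0654), without control replicate 1 (0.0936) or 2 (0.134), and without TUSC4 shRNA replicate 1 (0.0981) or 2 (0.0777). Without control replicate 2 the value was -0.29.

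HOXA2, HOXA4 and HOXA6 did not pass. HOXA2, which patterns the second pharyngeal arch, was the only tested HOXA gene with a positive value, 0.13, and was above background on 2 knockdown arrays and 1 control array. HOXA4 and HOXA6 had -0.06 and -0.07, with overlapping groups.

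**Figure D2:**
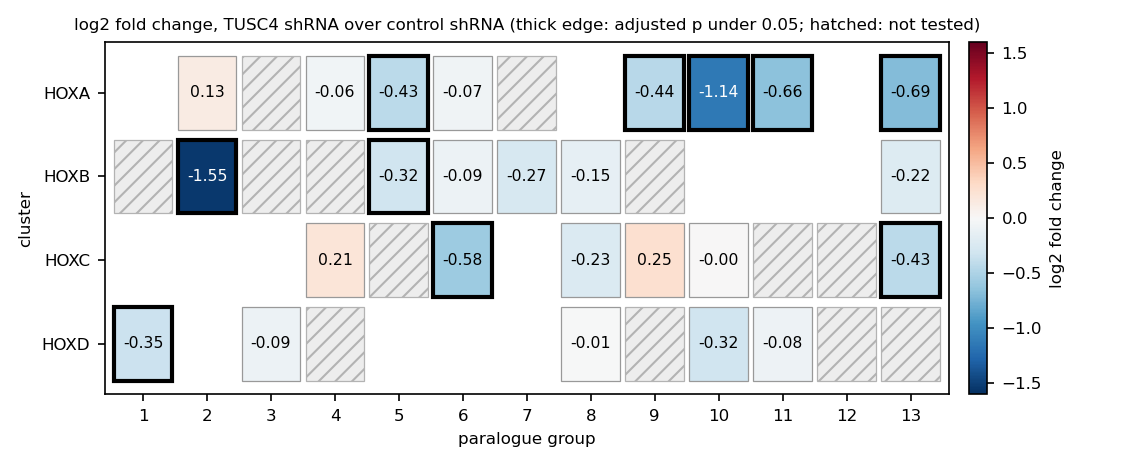
Log2 fold change, TUSC4 shRNA over control shRNA, for each HOX gene by cluster (rows) and paralogue group (columns). Thick edges mark the 10 genes past the limma threshold, hatched cells the 13 genes not tested, and an empty place has no human gene or a gene that is not shown. The posterior end of HOXA holds 4 marked cells in a row of neighbours, and the darkest cell is HOXB2 at -1.55. The cells of HOXA11 and HOXD1 show fitted values for probes within background in the knockdown.

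In HOXB 2 of 6 tested genes fell and none rose, beside 13.7% of all genes called lower, with a cluster median of -0.25. HOXB2, an anterior gene that patterns the hindbrain and its facial nerve, had the largest HOX fold change with the settings used. Its signals were 131, 143 and 151 in the knockdown and 421, 349 and 352 in the control. All 3 knockdown arrays were above background but close to it. The means were 141 ± 10.2 and 374 ± 40.8 (SD, n = 3 each), with a log2 fold change of -1.55 ± 0.10 (SE) at a limma adjusted p of 8.24e-08, or 34.1% of the control level on the offset scale. Over the 19 alternatives its log2 fold change lay between -1.98 and -1.09. The neighbouring anterior genes HOXB1, HOXB3 and HOXB4 were among those not tested.

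HOXB5, which takes part in gut innervation and shoulder position, had signals of 302, 287 and 359 in the knockdown and 459, 427 and 481 in the control. The groups lay apart, with a log2 fold change of -0.32 ± 0.10 at a limma adjusted p of 0.0294. That call was lost without control replicate 2 (0.0679) or 3 (0.156), without TUSC4 shRNA replicate 1 (0.0873) or 2 (0.0759) and with an offset of 16 (0.0533), and its value was -0.59 without normalization. HOXB7, a brighter central gene, had 481, 442 and 515 against 705, 664 and 687. Its groups also lay apart, but at -0.27 ± 0.10 it missed the threshold (limma adjusted p = 0.051), and it passed in 8 of the 19 alternatives. HOXB6, HOXB8 and HOXB13 had log2 fold changes of -0.09, -0.15 and -0.22 and did not pass. HOXB6 had a second kept probe, which gave 0.07.

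In HOXC 2 of 6 tested genes also fell and none rose, the same number as in HOXB, beside 13.7% of all genes called lower. The cluster median was -0.11. HOXC6, a thoracic-level gene, had signals of 1066, 870 and 1069 in the knockdown and 1957, 1722 and 1634 in the control, with no overlap. Its log2 fold change was -0.58 ± 0.10 (limma adjusted p = 0.000485). Its other kept probe gave 0.06, on signals of 138, 115 and 143 in the knockdown against 153, 132 and 125 in the control. The mean of both probes gave -0.26 and ended the call (limma adjusted p = 0.0632). HOXC4 and HOXC5 have the same start window in RefSeq, and HOXC6 is known to have transcripts that begin at that upstream start as well, so which transcript each of these probes reads is uncertain.

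HOXC13, a posterior gene needed in hair and nails, had signals of 256, 273 and 265 in the knockdown and 463, 389 and 368 in the control. These groups lay apart as well, with a log2 fold change of -0.43 ± 0.10 at a limma adjusted p of 0.0061, and -0.70 without normalization. HOXC8 had 255, 255 and 261 in the knockdown and 383, 334 and 326 in the control, a log2 fold change of -0.23 ± 0.10 that did not pass (limma adjusted p = 0.0991). Median scaling (-0.45, limma adjusted p = 0.00695) and leaving out normalization (-0.49, 0.00802) both called it lower. HOXC10, a hindlimb-level gene, had -0.00. HOXC4 and HOXC9 had the highest values of all tested HOX genes, 0.21 ± 0.15 and 0.25 ± 0.13, and neither passed. With median scaling they had 0.06 and 0.05, and without normalization 0.02 and 0.01. HOXC9 was called higher only without control replicate 3, at 0.41, which was the one alternative that gave any HOX gene higher. For HOXC4 the value rested on TUSC4 shRNA replicate 3, with a signal of 262 beside 168 and 170, and was -0.00 without it.

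In HOXD 1 of 5 tested genes fell and none rose, which is near the 13.7% of all genes called lower, and the cluster median was -0.09. HOXD1, an anterior gene that acts in pain-sensing neurons in mice, had signals of 107, 101 and 118 in the knockdown, all within background, and 138, 130 and 128 in the control. It fell at least 1.03-fold with the correction and offset used (limma adjusted p = 0.00998). No closer size can be given for a probe within background. HOXD10, which patterns the hindlimb, had 220, 188 and 231 in the knockdown and 306, 254 and 332 in the control. The groups lay apart, at -0.32 ± 0.12 (limma adjusted p = 0.0506), and 8 of the 19 alternatives called it. HOXD11, a forearm gene, had 403, 439 and 542 against 633, 582 and 528, with a log2 fold change of -0.08. HOXD3 and HOXD8 had -0.09 and -0.01.

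Array by array, the median over each cluster's tested genes of the log2 deviation from the control mean was apart between the groups for HOXA, HOXB and HOXD and overlapped for HOXC. For HOXA they were -0.29, -0.44 and -0.26 in the knockdown and -0.01, 0.05 and -0.10 in the control. For HOXB they were -0.31, -0.25 and -0.27 against -0.04, -0.00 and 0.02. HOXC had -0.16, -0.04 and -0.15 against -0.05, 0.04 and -0.03, where knockdown replicate 2 lay among the control arrays. HOXD had -0.24, -0.27 and -0.14 against 0.03, -0.09 and -0.01.

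Paralogues of the same group had unlike values. In group 10 the log2 fold change was -1.14 for HOXA10, -0.32 for HOXD10 and -0.00 for HOXC10. In group 9, HOXA9 had -0.44 and HOXC9 0.25. In group 6 the call was HOXC6, at -0.58, while HOXA6 and HOXB6 had -0.07 and -0.09. In group 13 HOXA13 and HOXC13 fell and HOXB13 had -0.22. Group 5 had calls in both measured members, HOXA5 at -0.43 and HOXB5 at -0.32. By position along the axis, 2 of 5 tested genes of groups 1 to 3 fell, 3 of 11 of groups 4 to 8 and 5 of 10 of groups 9 to 13, beside 13.7% of all genes. The medians were -0.23, -0.15 and -0.38, and with the bounds -0.09, -0.15 and -0.38. The differences between paralogues and between axis levels were not tested.

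Non-coding RNAs of the clusters were measured by 2 probes that passed, and both fell, beside 13.7% of all genes called lower. HOXA11AS, transcribed opposite HOXA11, had signals of 138, 141 and 159 in the knockdown against 259, 194 and 226 in the control, with a log2 fold change of -0.63 ± 0.10 at a limma adjusted p of 0.000365. HOTAIR, an RNA of the HOXC cluster that was described as a guide of Polycomb, had 123, 111 and 122 against 146, 141 and 150, with -0.33 ± 0.10 (limma adjusted p = 0.0194). HOTAIR was above background on 1 of 3 knockdown arrays and on all 3 control arrays, which alone met the filter. With the authors' values it was -0.18 and did not pass (adjusted p = 0.0612). The probes of MIR10A, MIR10B, MIR196A1, MIR196A2 and MIR196B, microRNA genes inside the clusters, and of the flanking homeobox genes EVX1 and EVX2 did not pass the filter.

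The promoter windows of the HOX genes that fell are shown so that the sequence around their start sites can be read beside the values. RefSeq's table on GRCh38.p14 held windows from 250 bases before to 50 after the start for 20 of the 39 HOX genes, 27 windows in all, and for 5 of the 10 genes that fell. HOXA9 lies at chr7:27165488-27165787, the upstream HOXA10 start at chr7:27179812-27180111, HOXA11 at chr7:27185183-27185482 and HOXA13 at chr7:27200042-27200341, all on the minus strand, and HOXD1 at chr2:176188418-176188717 on the plus strand. Capitals mark TATAAA and CCAAT, the letters of the TATA and CCAAT boxes, on either strand.
HOXA9: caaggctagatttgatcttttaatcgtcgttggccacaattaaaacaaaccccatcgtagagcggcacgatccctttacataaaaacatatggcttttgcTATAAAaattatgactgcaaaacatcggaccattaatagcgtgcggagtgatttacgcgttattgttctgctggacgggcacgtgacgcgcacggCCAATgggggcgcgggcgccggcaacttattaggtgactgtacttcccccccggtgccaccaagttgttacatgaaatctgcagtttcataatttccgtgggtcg
HOXA10: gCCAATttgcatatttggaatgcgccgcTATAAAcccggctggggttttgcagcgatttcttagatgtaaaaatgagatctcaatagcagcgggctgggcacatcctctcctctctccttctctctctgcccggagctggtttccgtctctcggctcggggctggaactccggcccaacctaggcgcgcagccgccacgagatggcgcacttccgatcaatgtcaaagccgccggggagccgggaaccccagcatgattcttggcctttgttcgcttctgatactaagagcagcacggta
HOXA11: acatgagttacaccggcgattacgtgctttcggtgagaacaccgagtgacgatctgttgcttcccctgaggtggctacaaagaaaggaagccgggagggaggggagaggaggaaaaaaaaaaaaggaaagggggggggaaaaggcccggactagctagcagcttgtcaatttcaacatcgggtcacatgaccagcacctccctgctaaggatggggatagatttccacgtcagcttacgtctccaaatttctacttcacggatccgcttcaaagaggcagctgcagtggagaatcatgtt
HOXA13: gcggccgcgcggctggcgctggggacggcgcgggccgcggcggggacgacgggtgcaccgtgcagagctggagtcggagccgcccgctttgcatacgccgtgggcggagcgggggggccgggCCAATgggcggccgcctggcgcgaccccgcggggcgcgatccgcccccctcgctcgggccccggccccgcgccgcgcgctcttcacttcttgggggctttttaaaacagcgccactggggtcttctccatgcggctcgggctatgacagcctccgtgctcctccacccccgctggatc
HOXD1: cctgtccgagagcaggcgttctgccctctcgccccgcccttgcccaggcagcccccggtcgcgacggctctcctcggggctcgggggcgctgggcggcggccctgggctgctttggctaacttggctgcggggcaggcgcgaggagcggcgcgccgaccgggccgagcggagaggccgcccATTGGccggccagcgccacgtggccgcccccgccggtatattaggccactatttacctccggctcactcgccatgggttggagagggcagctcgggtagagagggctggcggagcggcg
CCAAT was found on either strand in 5 of the 6 windows of genes that fell, all but that of HOXA11, and in 6 of the 8 windows of tested genes that did not, against 34.6% of the 35116 windows in the table. TATAAA was found in 3 of the 6, the HOXA9 window and both HOXA10 windows, in 0 of the 8, and in 11.5% of all windows. The 6 windows belong to 5 genes, because HOXA10 has a second one, at chr7:27174271-27174570, that is counted but not printed. The 8 windows belong to 8 genes. TGATNNAT, the core of the joint HOX and PBX site, was in 0 of the 6 and 2 of the 8, against 7.40% of all. The 6 windows of genes that fell had from 13 CpG dinucleotides, at HOXA11, to 44, at HOXA13. Their median was 23.5, against 26 for the 8 windows of tested genes that did not fall and 14 for all windows. The windows of HOXA11 and HOXA11AS (HOXA11-AS in RefSeq) share 275 bases, and their start sites lie 176 bases apart on opposite strands. A match is a description of these letters only.

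The genes on either side of the clusters were measured too. Beyond the HOXA13 end of HOXA all 5 nearest measured genes fell. They were HIBADH, a valine-degrading enzyme gene, at -1.30 ± 0.11 (limma adjusted p = 9.56e-07), TAX1BP1, an autophagy receptor gene, at -0.62, JAZF1 at -0.86, CREB5 at -0.48 and TRIL at -0.32. The call of TRIL was lost with the authors' values (limma adjusted p = 0.0743). Beyond the anterior end the 5 nearest had a median of -0.10. There HNRPA2B1 was at -0.27 and SNX10 at 0.34, both past the threshold, but neither passed with median scaling (limma adjusted p = 0.107 and 0.566). Of the 25 nearest measured genes on the HOXA13 side 14 fell and none rose, and on the anterior side 7 fell and 3 rose, where 13.7% of all genes were called lower and 13.3% higher. The falls of HOXA9 to HOXA13 stood beside falls of the genes next to them, and whether they belong to a wider shift along chromosome 7 was not tested. The HOXA median of -0.43 lay 0.20 below the median of its 50 nearest measured neighbours, which was -0.23, and 6 of the 9 tested HOXA genes lay below that median. Beyond the HOXA13 end the 5 nearest had a median of -0.62, beside -0.68 for HOXA9 to HOXA13, or -0.61 with HOXA11 at its bound.

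**Figure D3:**
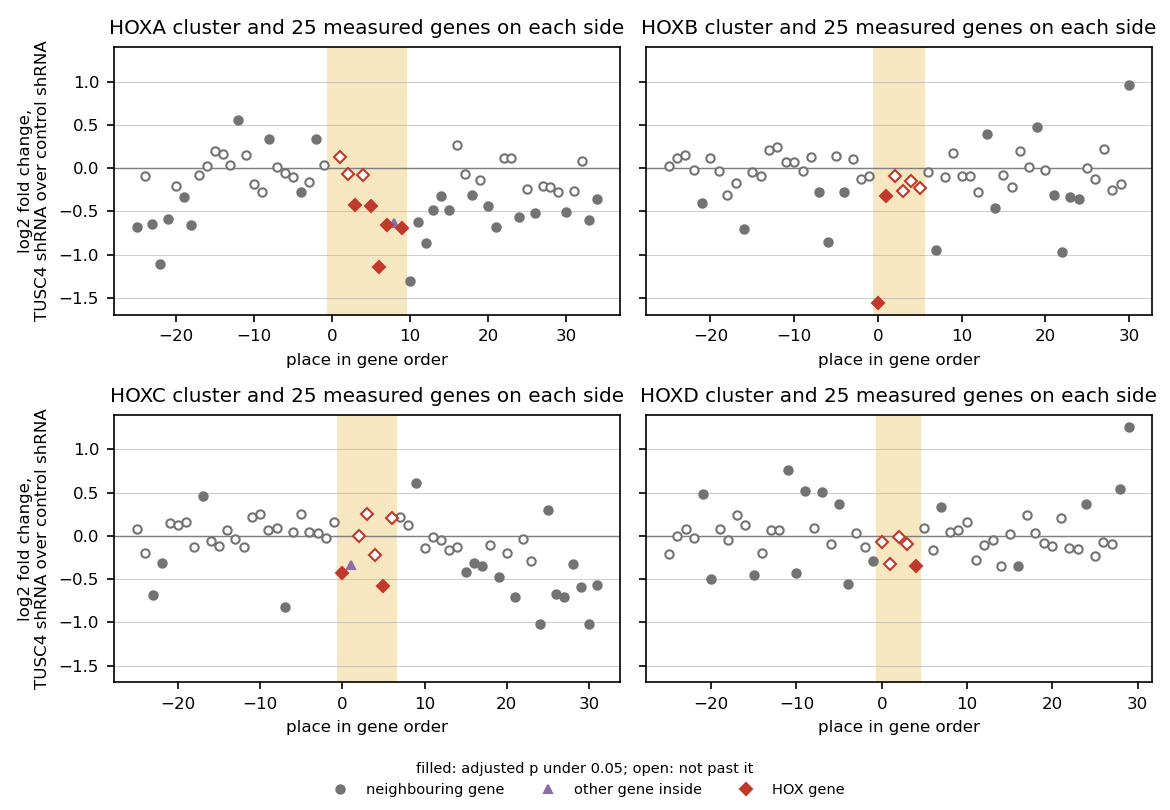
Log2 fold change of the measured genes, less 1 HOXA gene that is not shown, in chromosomal order across the 4 clusters (shaded) and 25 measured genes on each side; filled symbols passed the limma threshold. At HOXA the values step down inside the cluster and stay low through HIBADH at -1.30, while at HOXB the fall of HOXB2 stands beside SNX11 at -0.09 and CBX1 at -0.12.

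Beside HOXB2 the nearest 2 measured genes, SNX11 and CBX1, had -0.09 and -0.12 and did not pass. COPZ2, the fourth gene on that side, was called lower at -0.28 (limma adjusted p = 0.0495), a call lost with the authors' values (0.0838), and the median of the 50 nearest neighbours of HOXB was -0.09. On the far side ATP5G1, which encodes a form of subunit c of ATP synthase, fell at -0.95 ± 0.10, while CALCOCO2 between them had -0.04. Around HOXC the nearest 5 genes had medians of 0.05 on the HOXC13 side and 0.12 on the HOXC4 side, where HNRNPA1 was higher at 0.62 (0.33 without normalization, limma adjusted p = 0.0669). Of the 25 nearest genes on that side 12 fell and 2 rose, beside 13.7% lower and 13.3% higher over all genes, and HNRNPA1 was the only call among the nearest 5. Around HOXD the median of the 50 nearest by distance, which need not be 25 a side, was 0.04, with 6 lower and 7 higher, close to the shares over all genes. CHN1 fell there by 0.56 ± 0.10, and LNPK (KIAA1715 on the array), next to the cluster, was at -0.29, a call lost with the authors' values (limma adjusted p = 0.112). WIPF1 was at 0.36, a call lost with median scaling (limma adjusted p = 0.0776).

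The flanks of the clusters carry families that were duplicated with them, and their members had unlike values. The ATP synthase subunit c genes ATP5G1, ATP5G2 and ATP5G3, beside HOXB, HOXC and HOXD, had -0.95, -0.03 and -0.13. The heterochromatin protein genes CBX3, CBX1 and CBX5, beside HOXA, HOXB and HOXC, had -0.16, -0.12 and 0.12, with none past the threshold. NFE2L3, NFE2L1 and NFE2L2, stress-response factor genes beside HOXA, HOXB and HOXD, had -0.10, 0.11 and 0.33. The call of NFE2L2 was lost with median scaling (0.09, limma adjusted p = 0.601).

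Of 9 measured TALE homeobox genes, a class that holds the HOX cofactors PBX and MEIS, 2 fell and none rose, with a median of -0.16. At an unadjusted p under 0.05 limma gave 3 lower and 0 higher. Over all genes the shares lower were 13.7%, and 18.8% at the unadjusted threshold. PBX3, which itself binds as a partner of HOX proteins, had signals of 261, 250 and 315 in the knockdown against 559, 479 and 520 in the control and fell by 0.76 ± 0.10 on the log2 scale (limma adjusted p = 3.95e-05). TGIF1, a TALE repressor, fell by 0.38 ± 0.10. MEIS1 and MEIS2 had -0.16 and -0.22 and did not pass.

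The lists of chromatin regulators of HOX genes had medians near that of all genes. Of 30 measured Polycomb genes 3 fell and 2 rose, no larger a share than the 13.7% lower and 13.3% higher of all genes, with a median of -0.01. AEBP2, a PRC2 partner, fell by 0.64 ± 0.10, and BMI1 and CBX2, parts of PRC1, fell by 0.46 ± 0.12 and 0.40 ± 0.11. The rises of PCGF6 (0.37) and PHF19 (0.34) were lost with median scaling (0.13 and 0.10). EZH2, the methyltransferase of PRC2, had -0.02. Of 18 Trithorax and MLL genes 1 fell and none rose (limma), with a median of 0.01. The 1 was DPY30, a core subunit of these complexes, at -0.53 ± 0.11. At an unadjusted p under 0.05 limma gave 2 lower and 2 higher, beside 18.8% of all genes lower and 18.9% higher.

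The 13.7% of all genes called lower and 13.3% called higher stand beside the next 3 counts. Of 10 genes of retinoid signalling and CDX factors, which induce HOX genes in embryos, 2 fell and 1 rose. CRABP2, a retinoic acid carrier gene, fell by 0.40 ± 0.10, and the retinal reductase gene DHRS3 rose by 0.53 ± 0.10, a call lost without normalization (0.33). Of 28 measured homeobox genes outside the clusters, with TGIF1 again among them, 8 fell and 2 rose, with a median of -0.05. PRRX2, a limb mesenchyme gene, had the largest rise at 0.83 ± 0.10. The other rise, ZHX2 at 0.33, was lost with median scaling (0.11, limma adjusted p = 0.531). Among those that fell, ZHX1 and MSX1 were at -0.45 and -0.51. Of 7 measured genes listed as HOX targets or partners in limb and skeleton, 3 fell and 1 rose, with BMP4, a bone morphogen, at -1.02 ± 0.09, EPHA3, above background on no knockdown array, past the threshold (limma adjusted p = 0.00116), GLI3 at -0.35 (limma adjusted p = 0.0836 with the authors' values) and CDKN1A, the p21 gene, higher by 0.62.

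**Figure D4:**
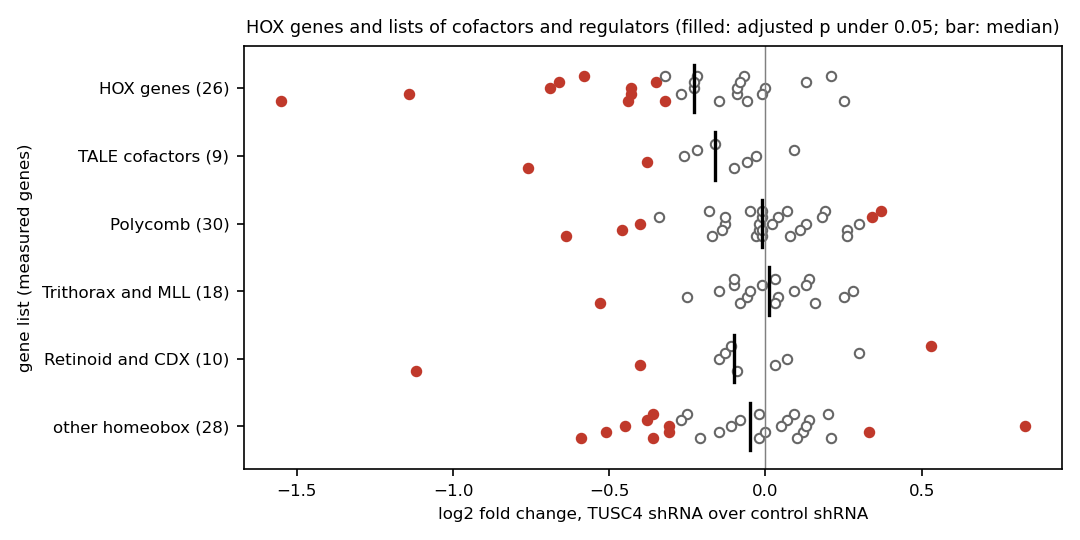
Log2 fold change, TUSC4 shRNA over control shRNA, of each measured gene of the HOX clusters and of 5 lists of cofactors, regulators and other homeobox genes (filled, past the limma threshold; vertical bar, median). The HOX genes have 10 filled points, all below 0, with a median of -0.23, while the Polycomb and Trithorax medians are -0.01 and 0.01.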

How the data were processed

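Per the file headers, the deposited signal table gives each probe's average over its beads as a linear intensity that the authors had not normalized. BeadStudio is named in the submitters' processing notes, with no version or settings. The authors' deposited log2 values had a median of 6.89 in all 6 columns, and their lowest Spearman correlation with the signal of the same array was 0.999999. Their making is not described in the labels or headers. They served as an alternative.

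The intensity was corrected with normexp at an offset of 50, which shrinks the fold changes of dim probes, then quantile-normalized and put on the log2 scale. With no detection p-values at hand, background was estimated per array from the mode of the density of log2 signals (bandwidth 0.05) and the spread of the probes under it. A probe was kept when its one-sided p was below 0.05 on 3 or more of the 6 arrays. This left 20657 probes, 881 of them without a symbol, and 15300 genes, each represented by its brightest kept probe. Of the 54 HOX probes 28 were kept. Groups were compared with limma 3.58.1 in R 4.3.3 (lmFit and eBayes, no covariates, Benjamini-Hochberg adjustment over all genes, threshold 0.05). The number of arrays limits the precision.

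The rule named every HOX gene, with up to 4 called members of each further list, or up to 2 where none was called, and the 5 nearest measured genes on each side of a cluster. A few of the genes it names are not reported here. The members, lists and tests were chosen with earlier results of these data known. All 39 HOX symbols matched the RefSeq gene table (GRCh38.p14), which served for names and gene order, since no build is named for the array. Alternatives covered background, scaling, filter, probe rule, variance model, array weights, a replicate block and each array left out.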

Additional observations from a re-analysis of the deposited data

How the results depend on the processing

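With the replicate number as a block, 11 HOX genes were lower and none higher, beside 13.5% of all genes lower and 13.2% higher. Same-numbered arrays had correlations of 0.10, 0.05 and -0.11 between their deviations from the group means, and unlike-numbered arrays had -0.18 to 0.11. The labels do not say what the number marks, and these correlations cannot settle it. Of 26 HOX genes 11 were lower without background correction, with kept probes averaged per gene and with array weights. Under these settings 13.5% to 14.9% of all genes were lower. With the detection p under 0.01, 11 of 19 tested were lower, beside 15.1% of all genes. Median scaling and no normalization each gave 13 lower, beside 22.6% and 23.0% of all genes. When only genes above background on all 6 arrays were fitted, 9 of 15 were lower, beside 15.1% of all genes. With an array left out 8 to 10 HOX genes were lower, beside 10.2% to 13.3% of all genes. The number higher was 0 to 1 with an array left out, and the 1 was HOXC9 without control shRNA replicate 3. HOXA9, HOXA10, HOXB2 and HOXC13 were called in all 19 alternatives, and HOXA11, HOXA13 and HOXD1 in each of those that tested them.

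The cluster medians moved with scaling and background. With median scaling they were -0.59 for HOXA, -0.38 for HOXB, -0.24 for HOXC and -0.32 for HOXD, and without normalization -0.63, -0.42, -0.28 and -0.36. Without background correction HOXA had -0.33 and HOXB -0.20, and with an offset of 16 HOXB had -0.32 and HOXD -0.16. With the authors' values HOXA had -0.30 and HOXB -0.18, and with no filter -0.23 and -0.14. Over genes above background on all 6 arrays HOXB had -0.30, HOXC -0.23 and HOXD -0.20, and with a detection p under 0.01 HOXA had -0.55 and HOXD -0.20. With an array left out the medians were HOXA -0.49 to -0.29, HOXB -0.31 to -0.24, HOXC -0.16 to -0.05 and HOXD -0.19 to -0.10.

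Only uncalled genes changed sign. HOXC10 had 0.01 with an offset of 16, 0.00 with the authors' values and 0.02 with array weights, and HOXD8 had 0.01 with array weights. With an array left out the log2 fold changes were HOXA4 -0.12 to 0.02, HOXC4 -0.00 to 0.35, HOXC10 -0.09 to 0.10, HOXD3 -0.19 to 0.00, HOXD8 -0.09 to 0.06 and HOXD11 -0.13 to 0.01. The cause of these shifts was not tested. Signals of most HOX probes lay near background, where a fold change depends on the offset.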
